A study of Homo sapiens with 4 samples.

Results

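The 42 genes described here encode the components of signaling by transforming growth factor beta (TGF-beta) and bone morphogenetic proteins (BMP). They are a list of symbols drawn up by role in the pathway with earlier results of these data known, and all 42 were found by Entrez ID among the 39259 genes of the table. The RNA came from MDA-MB-231, an established line of human triple-negative breast cancer cells. Of 4 libraries, 2 came from cells labelled as a knockout (KO) of mdig, the JmjC oxygenase MINA53 encoded by RIOX2, and 2 came from wild-type (WT) cells. Both groups are the same line in the same serum-supplemented medium, and the labels name no other agent, allele or time. How the knockout was made, and whether the KO cells are a single clone, is not stated in the sources at hand.

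Ligands of this family are dimers that gather a pair of type II and a pair of type I receptor kinases. The type I receptor then phosphorylates receptor SMADs, SMAD2 and SMAD3 for TGF-beta and activin and SMAD1, SMAD5 and SMAD9 for BMPs, which enter the nucleus with SMAD4. TGF-beta leaves the cell in a latent form that latent TGF-beta binding proteins hold in the matrix, and many targets of the pathway are its own inhibitors. In carcinoma cells the pathway is known both for arresting growth and for driving invasion, and MDA-MB-231 is a standard line for the study of its role in metastasis.

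The fragments assigned to genes numbered 48768932 and 52163811 in KO-labelled replicates 1 and 2, against 45173267 and 22503981 in WT replicates 1 and 2. RIOX2 itself was not lower: it measured 9.23 and 9.82 FPKM (fragments assigned to a gene, scaled by its exonic length and by the library's total) in the KO-labelled libraries, against 8.60 and 8.24 FPKM in WT (log2 change 0.16, SE 0.060, limma adjusted p = 0.0546). It passed the test as a rise in 8 of 15 alternatives, with adjusted p from 0.0131 to 0.360 over all of them. RNA thus did not check the label, so the text speaks of KO-labelled libraries throughout. All 8 markers of the line, among them vimentin and CD44, had a mean of at least 1 FPKM, with a summed level of 3404 and 3398 FPKM in the KO-labelled and 3659 and 3763 FPKM in the WT libraries. Past the test, 2 of the 8 were higher and 3 lower (25% and 37.5%, beside 21.6% and 28.4% of all tested genes). The largest change among them was the rise of CAV1 (log2 change 0.59, limma adjusted p = 9.19e-05). Of 11 markers of fibroblasts, leukocytes and endothelium, PDGFRB and PECAM1 exceeded 1 FPKM in any library. DCN, LUM, CD3E and CDH5 stayed at or below 0.0324 FPKM. The leukocyte marker PTPRC had 0.142 and 0.125 FPKM in the KO-labelled and 0.156 and 0.121 FPKM in the WT libraries. PDGFRB had 1.49 and 1.499 FPKM in the KO-labelled and 1.26 and 1.12 FPKM in the WT libraries, and PECAM1 had 1.36 and 1.37 FPKM in the KO-labelled and 0.970 and 0.985 FPKM in the WT libraries. Of 6 luminal markers, GATA3 and EPCAM had a mean of at least 1 FPKM and ESR1 and PGR had at most 1 fragment in any library. GATA3 fell by 0.21 and EPCAM rose by 0.28 on the log2 scale (limma adjusted p = 0.0160 and 0.0103). CDH1, not tested, had 0.597 and 0.625 FPKM in the KO-labelled and 0.177 and 0.128 FPKM in the WT libraries, and FOXA1 had 0 and 2 fragments in the KO-labelled and 20 and 8 in the WT libraries. The luminal sum was 6.76 and 6.78 FPKM in the KO-labelled and 6.66 and 6.30 FPKM in the WT libraries, and the part of these markers in the results was not tested.

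Averaged over all 4 libraries, 36 of the 42 members reached 1 FPKM and were tested, and each of these also averaged at least 1 FPKM in both groups. Past the test, 19 were higher and 7 lower in the KO-labelled libraries (limma on values of log2(FPKM + 1), with p adjusted by Benjamini-Hochberg over every gene tested and a threshold of 0.05). This share is 72.2%, beside 49.9% of the 11716 genes tested in the whole table. Members were higher in 52.8% of cases and lower in 19.4%, against 21.6% and 28.4% of all tested genes. The balance of all genes depended on scaling: of those called, 43.2% were higher here, 51.9% with median-of-ratios scaling and 50.4% with bin medians subtracted. For members these shares were 73.1%, 76.9% and 69.6%. Their median log2 change was 0.20, against −0.04 for all tested genes. A change of at least 0.5 was reached by 9 of the 36, where 10.4% of all tested genes were called with a change of that size. The groups did not overlap for 32 of the 36 members, beside 77.5% of all tested genes. The labels do not state that replicates grew as separate cultures, so the p-values reflect library-to-library spread that may be technical. In bulk RNA, fewer cells that express a gene and less RNA per cell cannot be told apart.

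**Figure D1:**
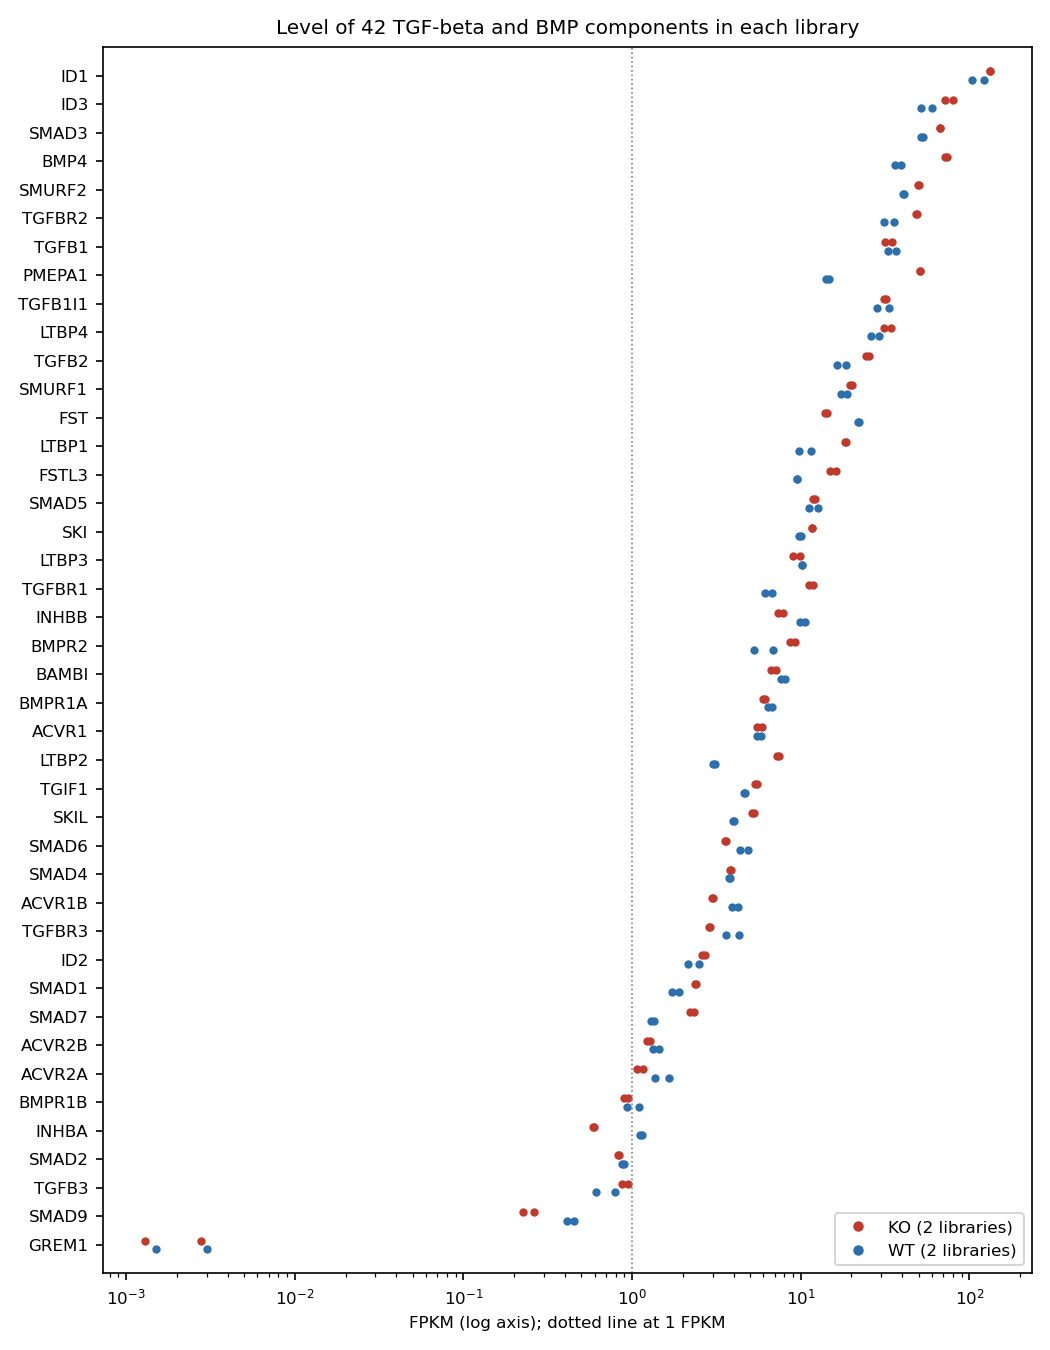
Level of each of the 42 members in FPKM (log axis), with members ordered by their mean over the 4 libraries. Red points are the 2 KO-labelled and blue points the 2 WT libraries, and the dotted line marks 1 FPKM. ID1, ID3 and SMAD3 lie at the top, and GREM1 lies at the bottom on 1 to 2 fragments per library.

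Levels spanned a wide range. ID1 was the most abundant member, with 132 and 132 FPKM in the KO-labelled and 104 and 122 FPKM in the WT libraries. At the other end GREM1, a secreted BMP antagonist, had 2 and 1 fragments in the KO-labelled and 1 and 1 in the WT libraries. That is at or under the 3 fragments taken as the floor of detection, so no fold is given. The plot of levels by library shows that members higher in the KO-labelled libraries ran from 1.79 to 122 FPKM (median 14.5, mean over the 4 libraries) and those lower from 1.31 to 18.04 FPKM (median 4.10).

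Among the ligands, BMP4 and TGFB2 were higher and INHBB was lower in the KO-labelled libraries. BMP4, a BMP ligand on chromosome 14 (53949736 to 53956891), measured 73.6 and 72.1 FPKM in the KO-labelled libraries, against 36.5 and 39.2 FPKM in WT. Both KO-labelled values lay above both WT values, at a 1.93-fold higher mean (log2 change 0.93, SE 0.057, limma adjusted p = 1.65e-05). TGFB2, the TGF-beta isoform that needs the co-receptor betaglycan for efficient receptor binding, measured 24.3 and 25.4 FPKM in the KO-labelled libraries, against 18.6 and 16.4 FPKM in WT. Its log2 change was 0.48 (SE 0.069, limma adjusted p = 0.000842).

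TGFB1, the most abundant of the 3 TGF-beta isoforms, overlapped between the groups. It measured 34.6 and 31.8 FPKM in the KO-labelled libraries, against 32.9 and 36.6 FPKM in WT (log2 change −0.06, SE 0.070, limma adjusted p = 0.480). Of the summed level of the 3 isoforms, TGFB1 made up 57.9% and 54.7% in the KO-labelled libraries, against 62.9% and 68.3% in WT. The sum itself was 59.0 ± 1.19 FPKM in the KO-labelled and 53.0 ± 0.922 FPKM in the WT libraries (mean ± SD, n = 2, likewise for every other sum below). TGFB2 shares 1370 of its 5952 exon bases with TGFB2-OT1 on the same strand, which is listed at 0 in all libraries, and the handling of such reads is not stated in the sources at hand.

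Both activin beta subunits were at lower values in the KO-labelled libraries. INHBB, the beta-B subunit of activin and inhibin, measured 7.32 and 7.86 FPKM in the KO-labelled libraries, against 9.95 and 10.5 FPKM in WT (log2 change −0.39, SE 0.062, limma adjusted p = 0.00143). INHBA, the beta-A subunit, did not pass the filter on low values, with 0.589 and 0.593 FPKM in the KO-labelled and 1.15 and 1.11 FPKM in the WT libraries, from 202 to 421 fragments. With no filter, its log2 change was −0.42 (SE 0.050) and passed the test (limma adjusted p = 0.0139). TGFB3, also below the filter, measured 0.866 and 0.943 FPKM in the KO-labelled and 0.788 and 0.614 FPKM in the WT libraries (0.16 with no filter, limma adjusted p = 0.202).

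**Figure D2:**
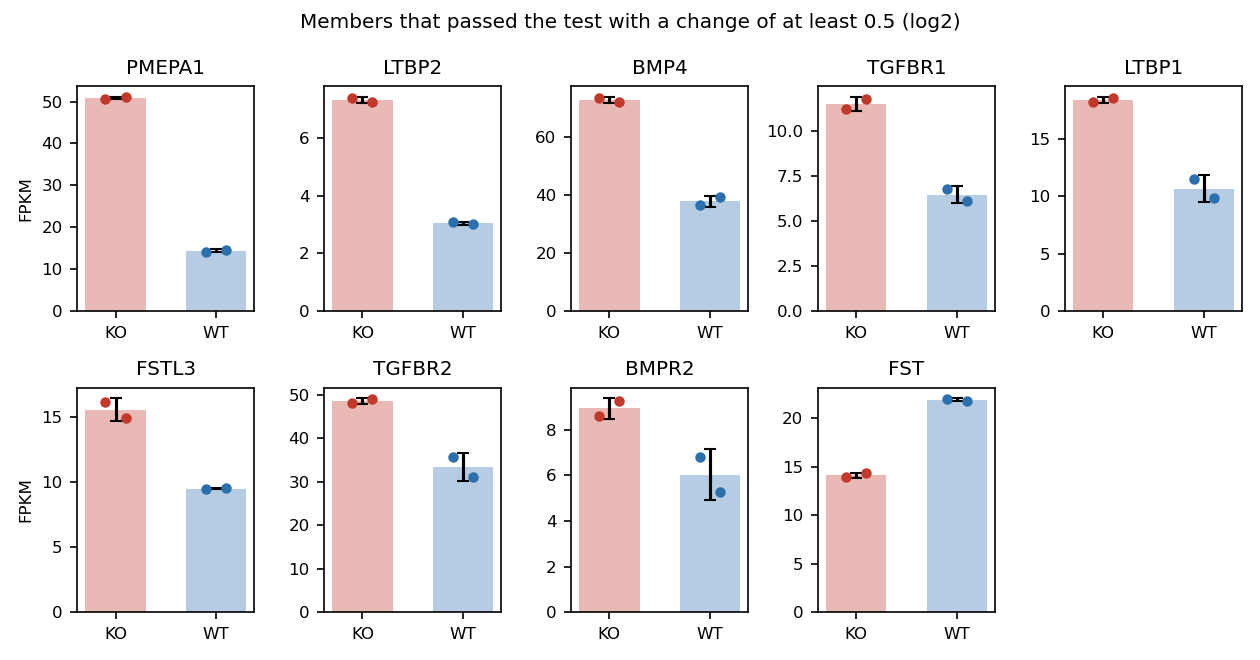
FPKM of the 9 members that passed the test with a log2 change of at least 0.5 in either direction. Bars are means of 2 libraries, error bars are SD and points are libraries, with KO-labelled in red on the left and WT in blue on the right. PMEPA1 shows the largest rise (50.9 against 14.4 FPKM) and FST is the member that fell.

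Of the 4 latent TGF-beta binding proteins, 3 were higher in the KO-labelled libraries and none was lower, though LTBP3 did not pass the test. Of all tested genes, 21.6% were higher. LTBP2, a protein of elastic fibers that, unlike its relatives, is not known to bind latent TGF-beta, measured 7.41 and 7.25 FPKM in the KO-labelled libraries, against 3.08 and 3.01 FPKM in WT (chromosome 14, 74498183 to 74612593). Its mean was 2.40-fold higher in FPKM, and the log2 change was 1.04 on log2(FPKM + 1) (SE 0.057, limma adjusted p = 1.05e-05). With 0.1 added in place of 1, the log2 change was 1.24. The pairs lay far apart relative to their spread.

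LTBP1, which tethers latent TGF-beta to the matrix, measured 18.2 and 18.6 FPKM in the KO-labelled libraries, against 11.5 and 9.82 FPKM in WT (log2 change 0.74, SE 0.075, limma adjusted p = 0.000210). LTBP4, the most abundant of the family, had 34.4 and 31.2 FPKM in the KO-labelled and 26.2 and 29.0 FPKM in the WT libraries. Its rise of 0.24 (SE 0.071, limma adjusted p = 0.0234) was lost without KO-labelled replicate 1 (0.17, adjusted p = 0.194) or with no filter on low values (adjusted p = 0.112). LTBP3 measured 9.96 and 9.02 FPKM in the KO-labelled and 10.2 and 10.1 FPKM in the WT libraries (log2 change −0.09, SE 0.063, limma adjusted p = 0.252). The summed level of the 4 genes was 68.0 ± 2.78 FPKM in the KO-labelled and 51.5 ± 0.688 FPKM in the WT libraries.

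The receptors moved in both directions, 3 higher and 3 lower of 9 tested (33.3% each, beside 21.6% higher and 28.4% lower of all tested genes). Both signaling receptors of TGF-beta itself were higher in the KO-labelled libraries. TGFBR1, the type I kinase also called ALK5 (chromosome 9, 99104038 to 99154192), measured 11.2 and 11.8 FPKM in the KO-labelled libraries, against 6.79 and 6.11 FPKM in WT (1.78-fold, log2 change 0.75, SE 0.066, limma adjusted p = 9.66e-05). TGFBR2, the type II kinase that binds the ligand first (chromosome 3, 30606472 to 30694142), measured 48.0 and 49.0 FPKM in the KO-labelled libraries, against 35.6 and 31.1 FPKM in WT (log2 change 0.53, SE 0.069, limma adjusted p = 0.000568). Neither pair of groups overlapped. The other tested genes of their 20 Mb bins had medians of −0.12 and −0.17, opposite in sign to both rises.

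TGFBR3, the co-receptor betaglycan, was lower, with 2.86 and 2.89 FPKM in the KO-labelled libraries, against 4.30 and 3.62 FPKM in WT (log2 change −0.35, SE 0.076, limma adjusted p = 0.00567), a call lost with no filter (adjusted p = 0.0517). Among the activin receptors, ACVR1B, the type I kinase ALK4, measured 2.98 and 3.01 FPKM in the KO-labelled libraries, against 4.22 and 3.94 FPKM in WT (log2 change −0.35, SE 0.061, limma adjusted p = 0.00229). Its bin median was −0.17, and with that subtracted the change was −0.18 (adjusted p = 0.0482). ACVR2A, a type II receptor for activin, had 1.07 and 1.16 FPKM in the KO-labelled and 1.36 and 1.66 FPKM in the WT libraries, so the nearest values of the groups lay close together. It fell by 0.25 on the log2 scale (SE 0.077, limma adjusted p = 0.0280). This call was lost without KO-labelled replicate 1, without KO-labelled replicate 2 and without WT replicate 2 (adjusted p = 0.166, 0.0878 and 0.0688), with quantile normalization (0.0505) and with no filter (0.104). ACVR2A shares 427 exon bases with ORC4 on the opposite strand, at a mean of 4.70 FPKM. ACVR2B, its close relative, had 1.23 and 1.28 FPKM in the KO-labelled and 1.32 and 1.44 FPKM in the WT libraries and did not pass the test (−0.08, SE 0.066, limma adjusted p = 0.351).

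Of BMPR1A, BMPR1B and BMPR2, only BMPR2, a type II receptor for BMPs, passed the test. It measured 8.60 and 9.24 FPKM in the KO-labelled libraries, against 6.81 and 5.25 FPKM in WT (log2 change 0.50, SE 0.109, limma adjusted p = 0.00976). The WT libraries differed from each other almost as much as the nearest pair across groups, and with no filter on low values the adjusted p was 0.0579. The type I receptors ACVR1 (ALK2) and BMPR1A (ALK3) gave log2 changes of 0.02 (SE 0.062) and −0.10 (SE 0.059), neither past the test. ACVR1 measured 5.93 and 5.52 FPKM in the KO-labelled and 5.79 and 5.48 FPKM in the WT libraries. BMPR1A measured 5.94 and 6.17 FPKM in the KO-labelled and 6.72 and 6.37 FPKM in the WT libraries. BMPR1B (ALK6), below the filter, had 0.890 and 0.948 FPKM in the KO-labelled and 1.10 and 0.937 FPKM in the WT libraries, which overlap.

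**Figure D3:**
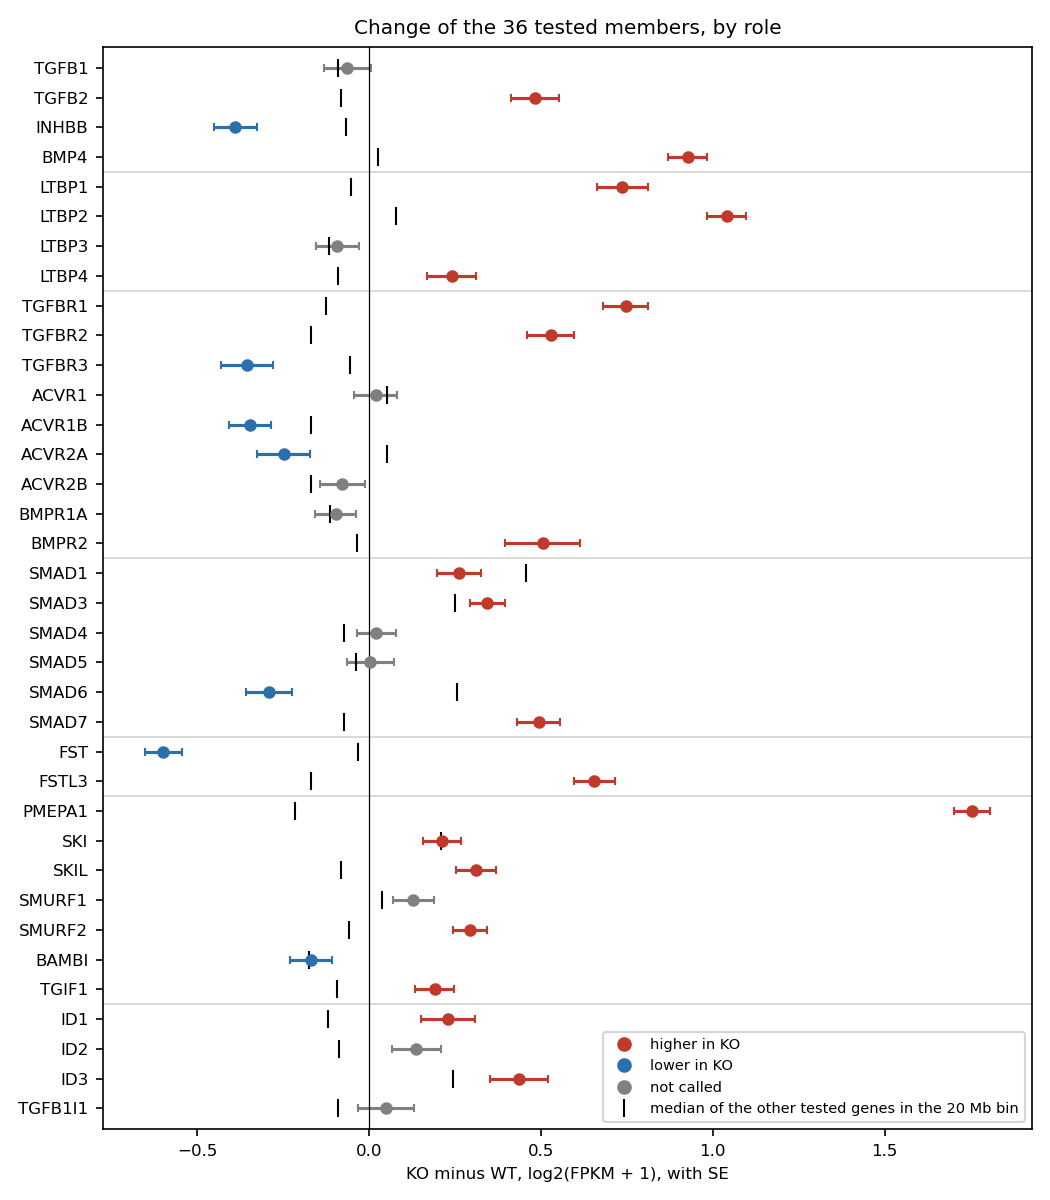
Log2 change of the 36 tested members (KO-labelled minus WT, on log2(FPKM + 1)), grouped by role from ligands at the top to ID genes at the bottom, with SE as error bars. Red is higher, blue lower and grey not called, and the black tick is the median change of the other tested genes in the same 20 Mb bin. PMEPA1 lies at 1.75 against a tick at −0.21, while for SMAD1 the tick (0.46) lies beyond the point (0.26).

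Among the SMADs, SMAD3, SMAD7 and SMAD1 were higher and SMAD6 was lower in the KO-labelled libraries. SMAD3, the receptor SMAD that carries TGF-beta and activin signals and binds DNA, was the most abundant SMAD and measured 66.6 and 66.7 FPKM in the KO-labelled libraries, against 53.2 and 51.4 FPKM in WT (log2 change 0.34, SE 0.051, limma adjusted p = 0.000992). It lies on chromosome 15 in a bin where the other tested genes had a median of 0.25, and with that median subtracted the change was 0.09 (adjusted p = 0.176). SMAD1, a receptor SMAD of the BMP branch, measured 2.38 and 2.36 FPKM in the KO-labelled libraries, against 1.89 and 1.73 FPKM in WT (log2 change 0.26, SE 0.064, limma adjusted p = 0.00993). Its bin on chromosome 4 had a median of 0.46, and with that subtracted the change turned to −0.19 (adjusted p = 0.0448). The part of these regional shifts in both results was not tested further. The call for SMAD1 was also lost without KO-labelled replicate 1 or 2 (adjusted p = 0.0820 and 0.0747).

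The inhibitory SMADs, which block receptor signaling and are themselves induced by the pathway, went opposite ways. SMAD7, known to inhibit both branches, measured 2.32 and 2.21 FPKM in the KO-labelled libraries, against 1.29 and 1.35 FPKM in WT, from 112 to 426 fragments. Its mean was 1.72-fold higher in FPKM, with a log2 change of 0.49 on log2(FPKM + 1) (SE 0.063, limma adjusted p = 0.000492). SMAD6, which inhibits mainly the BMP branch, measured 3.62 and 3.54 FPKM in the KO-labelled libraries, against 4.87 and 4.35 FPKM in WT (log2 change −0.29, SE 0.067, limma adjusted p = 0.00773). SMAD6 lies near SMAD3 on chromosome 15, where the bin median was 0.25, opposite in sign to its fall. Its call was lost without KO-labelled replicate 2 (−0.28, adjusted p = 0.0651). As a sum, SMAD6 and SMAD7 were at 5.85 ± 0.134 FPKM in the KO-labelled and 5.93 ± 0.330 FPKM in the WT libraries.

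SMAD4 and SMAD5 did not pass the test, with log2 changes of 0.02 (SE 0.058) and 0.00 (SE 0.068). SMAD4, the partner shared by both branches, had 3.80 and 3.87 FPKM in the KO-labelled and 3.74 and 3.78 FPKM in the WT libraries. SMAD5, the most abundant receptor SMAD of the BMP branch, had 11.8 and 12.2 FPKM in the KO-labelled and 12.7 and 11.2 FPKM in the WT libraries. SMAD2, the other SMAD of the TGF-beta branch, was listed at 0.836 and 0.830 FPKM in the KO-labelled and 0.869 and 0.897 FPKM in the WT libraries. These values rest on 849 to 1822 fragments spread over an exonic length of 42081 bases in the table, the longest of the members, so that the FPKM depends on the annotated length. With no filter SMAD2 gave −0.04 (SE 0.049, limma adjusted p = 0.633). SMAD9, the least abundant receptor SMAD, had 0.226 and 0.263 FPKM in the KO-labelled and 0.455 and 0.414 FPKM in the WT libraries (−0.21 with no filter, limma adjusted p = 0.0593).

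The secreted antagonists of activin also went opposite ways. FST, follistatin, measured 13.97 and 14.3 FPKM in the KO-labelled libraries, against 22.0 and 21.8 FPKM in WT (log2 change −0.60, SE 0.053, limma adjusted p = 0.000100). FSTL3, a relative that binds the same ligands, measured 16.2 and 14.95 FPKM in the KO-labelled libraries, against 9.51 and 9.52 FPKM in WT (log2 change 0.66, SE 0.060, limma adjusted p = 0.000114). In FPKM, which depends on annotated length, FSTL3 was above FST in both KO-labelled libraries, and FST was above FSTL3 in both WT libraries. In KO-labelled replicate 2 the values lay close together, at 14.95 FPKM for FSTL3 and 14.3 FPKM for FST.

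Of the 7 intracellular and membrane inhibitors, 5 were higher and 1 lower, beside 21.6% and 28.4% of all tested genes. PMEPA1, a membrane protein induced by TGF-beta that sequesters receptor SMADs, had the largest change of any member (chromosome 20, 57648396 to 57711472). It measured 50.7 and 51.1 FPKM in the KO-labelled libraries, against 14.2 and 14.6 FPKM in WT, a 3.54-fold higher mean (log2 change 1.75, SE 0.052, limma adjusted p = 1.43e-06). The other tested genes of its bin had a median of −0.21. PMEPA1 shares 267 of 5514 exon bases with the antisense gene NKILA, which measured 1.02 and 1.04 FPKM in the KO-labelled and 0.639 and 0.479 FPKM in the WT libraries. Their reads in the shared stretch cannot be told apart without strand.

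SKIL, the SMAD corepressor SnoN, measured 5.13 and 5.32 FPKM in the KO-labelled libraries, against 4.05 and 3.98 FPKM in WT (log2 change 0.31, SE 0.058, limma adjusted p = 0.00301). SMURF2, a ubiquitin ligase that targets receptors and SMADs, measured 49.9 and 50.4 FPKM in the KO-labelled libraries, against 41.1 and 40.4 FPKM in WT (log2 change 0.29, SE 0.051, limma adjusted p = 0.00204). Its relative SMURF1 had 19.5 and 20.1 FPKM in the KO-labelled and 18.7 and 17.3 FPKM in the WT libraries. It gave 0.13 (SE 0.060, limma adjusted p = 0.105), and passed the test as a rise after median-of-ratios scaling (0.17, adjusted p = 0.0440), without WT replicate 1 (0.18, adjusted p = 0.0124) and with a crossed replicate block (adjusted p = 0.0454).

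Small changes of the remaining inhibitors depended on the settings. SKI, the corepressor related to SKIL, had 11.7 and 11.6 FPKM in the KO-labelled and 9.79 and 10.1 FPKM in the WT libraries. It rose by 0.21 (SE 0.055, limma adjusted p = 0.0130) and the other genes of its bin on chromosome 1 had the same median, 0.21. With that median subtracted its change was 0.0038 (adjusted p = 0.963), and its call was also lost without KO-labelled replicate 1 or 2 (adjusted p = 0.103 and 0.0996). TGIF1, a homeodomain corepressor of SMADs, had 5.38 and 5.49 FPKM in the KO-labelled and 4.62 and 4.65 FPKM in the WT libraries. It rose by 0.19 (SE 0.057, limma adjusted p = 0.0236), and lost its call without KO-labelled replicate 1 or 2, with a replicate block and with no filter (adjusted p 0.0567 to 0.191). BAMBI, a pseudoreceptor without a kinase, had 6.64 and 7.10 FPKM in the KO-labelled and 8.05 and 7.65 FPKM in the WT libraries. It fell by 0.17 on the log2 scale (SE 0.061, limma adjusted p = 0.0492), just inside the threshold. Its bin on chromosome 10 had a median of −0.17, and the call was lost in 10 of 15 alternatives, among them without KO-labelled replicate 1, without KO-labelled replicate 2 and without WT replicate 1 (adjusted p = 0.332, 0.119 and 0.0784).

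The stretches before the annotated starts of PMEPA1, SMAD7, BMP4 and SMAD6 are shown as examples picked after their values were seen: PMEPA1 for the largest rise, BMP4 as the ligand that rose most, and SMAD7 and SMAD6 for the opposite changes of the inhibitory SMADs. RefSeq (GRCh38.p14) gave promoters for 41 of the 42 members (not SKI), which are read 5′ to 3′ on the gene's strand and end at the base before the start. Capitals mark matches, on either strand, to CAGAC (a SMAD element), GTCTAGAC (the SMAD palindrome, which shares AGAC with it), GGCGCC (a GC-rich SMAD element) and TGANTCA (an AP-1 element). PMEPA1 is given as chr20:57711473-57711722, SMAD7 as chr18:48950966-48951215 and BMP4 as chr14:53955051-53955300, all on the minus strand. SMAD6 is given as the last 30 bases, chr15:66702206-66702235 on the plus strand, which lie inside an exon of the deposited gene model because that model starts earlier. The BMP4 stretch lies inside the deposited gene too, downstream of its outermost start and in none of its exons.
PMEPA1: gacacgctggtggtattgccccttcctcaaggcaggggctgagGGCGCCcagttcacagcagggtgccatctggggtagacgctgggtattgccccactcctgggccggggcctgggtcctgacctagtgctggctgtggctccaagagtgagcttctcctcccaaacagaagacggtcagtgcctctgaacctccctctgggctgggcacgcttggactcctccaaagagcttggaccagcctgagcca
SMAD7: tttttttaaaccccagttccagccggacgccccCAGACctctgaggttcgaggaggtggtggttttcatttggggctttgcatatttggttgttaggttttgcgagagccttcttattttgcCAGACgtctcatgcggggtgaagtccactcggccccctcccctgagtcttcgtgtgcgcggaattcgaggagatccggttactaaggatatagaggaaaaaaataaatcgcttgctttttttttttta
BMP4: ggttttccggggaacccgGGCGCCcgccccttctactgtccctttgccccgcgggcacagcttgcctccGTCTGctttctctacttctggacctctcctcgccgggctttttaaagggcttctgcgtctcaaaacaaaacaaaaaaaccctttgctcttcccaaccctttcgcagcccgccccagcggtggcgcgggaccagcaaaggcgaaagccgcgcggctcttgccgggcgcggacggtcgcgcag
SMAD6: ccgcggagccgccaaagtGTCTAGACtggc

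PMEPA1 and BMP4 each hold 1 GGCGCC, SMAD7 holds 2 copies of CAGAC, BMP4 holds 1 on the other strand (printed as GTCTG) and SMAD6 holds the palindrome. In the 250 bases before the start, CAGAC was found in 15 of 41 members (36.6%), beside 37.8% of 27305 promoters of the same length. Among promoters of tested genes it was found in 35.6%. It was found in 10 of the 18 matched members that were higher and in 1 of the 7 that were lower. For GGCGCC these counts were 7 of 18 and 3 of 7. The splits were not tested. GGCGCC was found in 14 of 41 members (34.1%), beside 16.1% of all promoters and 26.7% of those of tested genes, and the median GC content was 69.2% for members, 58% for all promoters and 65.2% for tested genes. The palindrome was found in 1 member, SMAD6, beside 0.176% of all promoters and 0.151% of those of tested genes. TGANTCA was found in 2 members (4.88%), beside 6.60% of all promoters and 3.68% of those of tested genes. A match describes letters in this window only.

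The ID genes, textbook targets of BMP signaling that encode inhibitors of basic helix-loop-helix factors, were higher in 2 of 3 cases, beside 21.6% of all tested genes. ID3 measured 80.1 and 72.0 FPKM in the KO-labelled libraries, against 51.8 and 60.1 FPKM in WT (log2 change 0.44, SE 0.085, limma adjusted p = 0.00492). Its bin on chromosome 1 had a median of 0.24, and with that subtracted the change was 0.19 (adjusted p = 0.112). ID1, given above, rose by 0.23 (SE 0.078, limma adjusted p = 0.0429), a call that was lost without WT replicate 1 (0.11, adjusted p = 0.0876), without KO-labelled replicate 1 or 2 (adjusted p = 0.134 and 0.138), without trend or robust (0.0595) and with no filter (0.155). ID2, with 2.72 and 2.58 FPKM in the KO-labelled and 2.15 and 2.50 FPKM in the WT libraries, gave 0.14 (SE 0.071, limma adjusted p = 0.143). It passed the test as a rise without WT replicate 2 (0.21, adjusted p = 0.00845), after bin medians were subtracted (0.22, adjusted p = 0.0380) and with length trends removed (0.26, adjusted p = 0.00759). TGFB1I1, the focal adhesion protein Hic-5, had 32.2 and 31.3 FPKM in the KO-labelled and 28.1 and 33.3 FPKM in the WT libraries and did not pass the test (0.05, SE 0.080, limma adjusted p = 0.632), though it did without WT replicate 2 (0.17, adjusted p = 0.0179).

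The WT libraries differed from each other along exonic length, which bears on short genes such as ID1, ID3 and TGFB1I1 and on long ones such as BMPR2. Over 2365 tested genes with under 2 kb of exon, the median of WT replicate 1 minus WT replicate 2 was −0.09 (log2), and over 3312 genes with over 6 kb it was 0.06. The KO-labelled minus WT median was −0.12 in the short and 0.03 in the long class. With the trend of each library with length removed, 19 members were higher and 6 lower, ID1 gave 0.35 (adjusted p = 0.00134), ID3 gave 0.57 (adjusted p = 0.000292) and BMPR2 gave 0.43 (adjusted p = 0.00335). SKI and BAMBI lost their calls there (adjusted p = 0.0650 and 0.387).

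**Figure D4:**
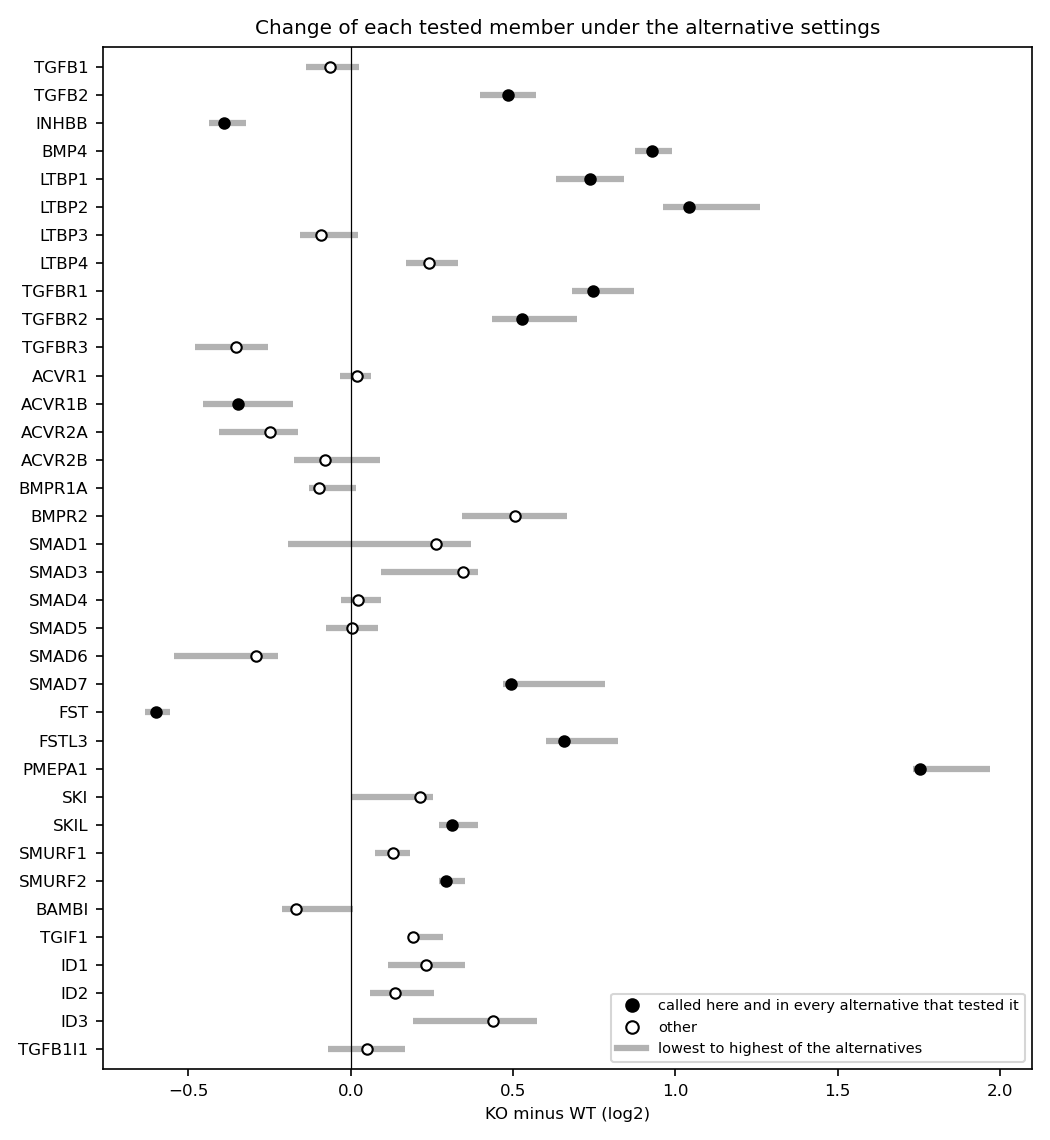
Log2 change of the 36 tested members (points) with the lowest and highest value over the alternative settings (grey bars), in the order of the plot of changes by role. Filled points mark the 14 members that passed the test in each alternative that tested them, led by PMEPA1 (1.75) and LTBP2 (1.04).

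Of the 26 members called, 14 passed the test in the same direction in each of the 15 alternatives that tested them. These were TGFB2, BMP4, LTBP1, LTBP2, TGFBR1, TGFBR2, SMAD7, FSTL3, PMEPA1, SKIL and SMURF2, all higher, and INHBB, ACVR1B and FST, all lower. The 20 Mb bins of the tested members had medians from −0.21 to 0.46, with the sign of the member's change for 11 of the 26 called and the opposite sign for 15.

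**Figure D5:**
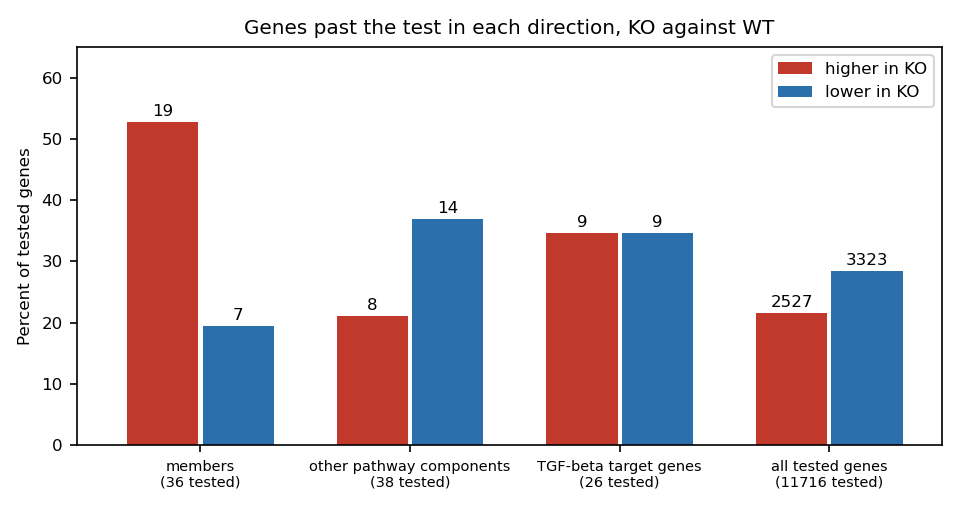
Percent of tested genes that passed the test in each direction, with red bars on the left of each pair for higher and blue bars on the right for lower in the KO-labelled libraries, and gene counts above the bars. Members were higher in 19 and lower in 7 of 36, other pathway components in 8 and 14 of 38, TGF-beta target genes in 9 and 9 of 26. Of all tested genes, 21.6% were higher and 28.4% lower.

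Other components of the pathway were a list of 72 ligands, receptors, antagonists and regulators. Of 38 tested, 8 were higher and 14 lower (21.1% and 36.8%), with a median log2 change of −0.12. Of all tested genes, 21.6% were higher and 28.4% lower. The share higher was thus close to that of all genes, and falls outnumbered rises in both. With bin medians subtracted, 2 were higher and 10 lower. NEO1, the receptor neogenin and a partner of BMP co-receptors, had 0.374 and 0.450 FPKM in the KO-labelled libraries, against 2.67 and 2.39 FPKM in WT (log2 change −1.32, SE 0.071, limma adjusted p = 9.21e-06), in a bin with a median of 0.25. CHRDL1, a secreted BMP antagonist, had 0.569 and 0.565 FPKM in the KO-labelled libraries, against 2.72 and 2.31 FPKM in WT (log2 change −1.16, limma adjusted p = 2.19e-05). Both passed the filter through their WT level, and both count among the 14 lower. Of the 38 tested, 36 averaged at least 1 FPKM in both groups.

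GDF15, a stress-induced divergent member of the ligand family, had 1.01 and 1.08 FPKM in the KO-labelled libraries, against 3.17 and 4.60 FPKM in WT (log2 change −1.24, limma adjusted p = 0.00178). CRIM1, a membrane protein that binds BMPs, fell by 0.63 on the log2 scale and the ligand GDF11 by 0.54. Among the tested genes of this list of other components, the largest rise past the test was that of ITGAV (0.44, limma adjusted p = 0.0109). ITGAV is the integrin alpha-V chain of the receptors that release TGF-beta from its latent complex. Its call was lost with no filter (adjusted p = 0.0644). RNF111, a ubiquitin ligase that removes SKI and SKIL, rose by 0.37 in a bin with a median of 0.36, and with that subtracted its change was 0.0044 (adjusted p = 0.960). FKBP1A, which binds the type I receptor, rose by 0.33. ZNF451, a nuclear repressor of SMADs, rose by 0.25. Its call was lost with bin medians subtracted (adjusted p = 0.153), without KO-labelled replicate 2 (adjusted p = 0.121) and with length trends removed (adjusted p = 0.0639).

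Genes known as TGF-beta targets in other cells moved both ways, 9 higher and 9 lower of 26 tested (36 listed), with a median of −0.01. That is 34.6% each way, beside 21.6% of all tested genes higher and 28.4% lower. With bin medians subtracted, 10 of the targets were higher and 5 lower. The list was chosen with earlier results known, so its direction is no independent evidence. THBS1, a matrix protein that can activate latent TGF-beta, rose by 1.73, TGFBI by 1.42, the transcription factor SNAI2 by 1.15, the angiogenic factor VEGFA by 1.03 and the cell cycle inhibitor CDKN1A by 1.01. THBS1 had 328 and 338.5 FPKM in the KO-labelled libraries, against 112 and 88.1 FPKM in WT. TGFBI had 140.3 and 145 FPKM in the KO-labelled libraries, against 54.5 and 51.3 FPKM in WT. SNAI2 measured 7.33 and 7.40 FPKM in the KO-labelled libraries, against 2.86 and 2.65 FPKM in WT. Its relative SNAI1 had 2.07 and 1.88 FPKM in the KO-labelled libraries, against 2.70 and 2.997 FPKM in WT (log2 change −0.37, limma adjusted p = 0.002995), in a bin with a median of −0.21, and with that subtracted its call was lost (−0.16, adjusted p = 0.0920). ANGPTL4 fell by 0.56, SPHK1 by 0.55, JUNB by 0.43 and CCN1 by 0.38 on the log2 scale. JUNB lost its call with no filter (adjusted p = 0.0535) and after subtraction of bin medians (adjusted p = 0.0528).

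CCN2, connective tissue growth factor and a common readout of the pathway, was added after its values were seen, as a gene outside the rule for naming. It measured 177 and 179 FPKM in the KO-labelled libraries, against 222 and 223 FPKM in WT (log2 change −0.32, limma adjusted p = 0.00120). The groups did not overlap, and CCN2 was lower where PMEPA1, SMAD7 and SKIL were higher.

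Beyond the ID genes among the members, 9 further BMP targets were listed and 4 tested, 2 higher and 1 lower. Over all tested genes, 21.6% were higher and 28.4% lower. RUNX2, the osteoblast transcription factor, measured 10.0 and 10.1 FPKM in the KO-labelled libraries, against 5.50 and 4.63 FPKM in WT (log2 change 0.87, SE 0.076, limma adjusted p = 9.72e-05). ID4 measured 3.76 and 3.96 FPKM in the KO-labelled libraries, against 2.21 and 2.15 FPKM in WT (log2 change 0.61, SE 0.061, limma adjusted p = 0.000160). The homeobox gene MSX2 had 0.636 and 0.698 FPKM in the KO-labelled libraries, against 1.51 and 1.78 FPKM in WT (log2 change −0.66, limma adjusted p = 0.000272), and passed the filter through its WT level.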

How the data were processed

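Total RNA of 4 libraries, grouped by title, was sequenced, and the authors deposited FPKM values per gene with exon coordinates and length. STAR, Subread and DESeq2 are named without version or role in the submitters' processing notes. Build and strandedness, both not given in the sources used here, could affect overlapping genes. The product of FPKM and length summed to 1000000 per library and gave whole fragments for 100% of values (tolerance 0.001). A level depends on the annotated length. Entrez IDs were matched to RefSeq (GRCh38.p14) for 96.0% of genes. Coordinates are as deposited.

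The test was limma 3.58.1 (R 4.3.3, trend and robust) on log2(FPKM + 1), which understates changes of low genes. It ran on 11716 genes, those averaging 1 FPKM or more, adjusted by Benjamini-Hochberg at a threshold of 0.05. Bin medians are over the other tested genes of a 20 Mb bin. The steps were tested on simulated data. The fit was tried on fragments drawn without a length trend or regional shift, so that test does not show how these affect the p-values. Both replicate pairs differed beyond counting noise, so all libraries were kept. The members and lists were chosen with earlier results of these data known. All members are described, and up to 5 of the largest rises and falls past the test are named from each further list, except items that are not reported here. Alternatives were a pseudocount of 0.1, no filter, a mean of 5 FPKM or more, quantile and median-of-ratios scaling, limma without trend or robust, voom on fragments, bin medians subtracted, a replicate block, and single libraries left out. A crossed block, the length trend and counts of the further lists were added after the data were seen.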

Additional observations from a re-analysis of the deposited data

How the results depend on the processing

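The count of members higher in the KO-labelled libraries, 19, ran from 15 to 20 over the alternatives that keep all libraries and from 14 to 21 with 1 library left out. The count lower, 7, was 3 with a mean of at least 5 FPKM, which tests 26 members, and 4 to 6 with 1 library left out. All called genes, 5850, numbered 3538 to 7077 with 1 library left out, the fewest without KO-labelled replicate 2 and 3802 without KO-labelled replicate 1. In these fits the lone library of a group was assumed to vary like the other pair. Of the other pathway components, the 8 higher became 5 with a mean of at least 5 FPKM, 2 with bin medians subtracted and 4 to 11 with 1 library left out, and the 14 lower became 8 with a mean of at least 5 FPKM and 9 to 18 with 1 library left out. The 9 lower TGF-beta targets became 5 with bin medians subtracted and 6 to 10 with 1 library left out. The cause of these shifts was not tested. With bin medians subtracted, SMAD1 turned to −0.19 and BAMBI to 0.0058. Replicate numbers are shared by the groups, but the labels name no shared culture or day, and the deviations of same-numbered libraries correlated at −0.22. With a replicate block, 18 members were higher and 6 lower, losing BAMBI and TGIF1, and with the crossed block 20 were higher and 7 lower. WT replicate 2 was the shallowest library, where 3 fragments on 1 kb of exon equal 0.133 FPKM, and this limits GREM1 and other genes near that level.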

Other observations

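BMP2, BMP5 and BMP6 lay below the filter on low values and were lower in both KO-labelled libraries than in either WT library. They were picked after their values were seen and were not tested. BMP2 had 0.266 and 0.308 FPKM in the KO-labelled libraries, against 0.930 and 0.602 FPKM in WT, from 46 to 149 fragments. BMP5 had 0.0544 and 0.0473 FPKM in the KO-labelled libraries, against 0.296 and 0.293 FPKM in WT, from 27 to 146 fragments. BMP6 had 0.0704 and 0.0963 FPKM in the KO-labelled libraries, against 0.275 and 0.294 FPKM in WT, from 13 to 47 fragments. BMP8B, also below the filter, was higher instead, with 1.04 and 0.978 FPKM in the KO-labelled libraries, against 0.884 and 0.664 FPKM in WT, from 94 to 321 fragments. BMP4, described above, was higher too.

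ITGB8, the integrin chain that pairs with ITGAV to release latent TGF-beta, had 0.608 and 0.550 FPKM in the KO-labelled libraries, against 0.164 and 0.126 FPKM in WT, from 29 to 304 fragments. CXCR4, a chemokine receptor studied in the spread of this line to bone, had 0 fragments in both KO-labelled libraries, against 18 and 8 fragments in WT. MMP2, like CXCR4 on the list of TGF-beta targets, went the other way, with 23 and 21 fragments in the KO-labelled and 1 and 0 in the WT libraries. ITGB8, CXCR4 and MMP2 lay below the filter, were not tested and are outside the rule for naming.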
